A study of Drosophila melanogaster with 6 samples.

Results

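Binding of the transcription factor CrebA was compared between embryos that expressed it under fkh-Gal4 and embryos that expressed it under sage-Gal4, over the 4255 genomic regions that held a ChIP-seq peak with both drivers. These shared regions were formed by merging fkh-Gal4 and sage-Gal4 peaks that overlapped by 1 bp or more, and they make up 4255 of the 8742 regions merged from both lists, or of 15071 regions when the Oregon R list is merged in as well. In each region the highest fkh-Gal4 peak and the highest sage-Gal4 peak were given a percentile rank by fold enrichment within their own list, where 100 marks the strongest peak. The difference of both percentiles, fkh-Gal4 minus sage-Gal4, orders the regions, and positive values mean a higher rank with fkh-Gal4. The classes described here were chosen by these percentiles, so their ranks and folds are a description and carry no test.

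The fkh-Gal4 group was Drosophila melanogaster embryos of genotype fkh-GAL4::UAS-CrebA-GFP, and the sage-Gal4 group was embryos of genotype sage-GAL4::UAS-CrebA-GFP, both precipitated with an antibody to GFP. Oregon R embryos, a wild-type strain with no transgene in the labels, were precipitated with an antiserum to CrebA itself. All embryos were at stages 11 to 16, laid over 8 h and aged another 11 h before fixation in 1.8% formaldehyde. Chromatin came from 2 collections, and an input library accompanies each group. There is 1 library per group, so no value below has a replicate check and no difference was tested.

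CrebA is a bZIP transcription factor of the CREB3 family that binds near genes of the secretory pathway, the route by which proteins enter the endoplasmic reticulum (ER), are folded and glycosylated, and travel through the Golgi to the cell surface. The embryonic salivary gland is an organ given over to secretion and needs CrebA for high expression of these genes. Gal4 is a yeast activator that switches on transgenes placed behind UAS sites. The fkh-Gal4 and sage-Gal4 drivers carry regulatory DNA of genes for 2 gland transcription factors, the forkhead protein Fkh and the bHLH protein Sage. Both drivers act in several tissues, and the series description names the salivary gland as the one tissue they have in common. The chromatin came from whole embryos, so binding in more cells and stronger binding per cell cannot be told apart, and a region shared by both lists can have been bound in one tissue with fkh-Gal4 and in another with sage-Gal4. The tagged protein was made at the level set by each driver, and peak lists cannot show in which tissue a peak was bound.

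The fkh-Gal4 list held 6464 peaks, the sage-Gal4 list 7916 and the Oregon R list 14039. Of the fkh-Gal4 peaks 4874 (75.4%) and of the sage-Gal4 peaks 5019 (63.4%) lay in shared regions. Fold enrichment, a value the authors deposited for each peak, ran between 1.33 and 3.51 in the fkh-Gal4 list, between 1.34 and 3.76 in the sage-Gal4 list and between 1.25 and 3.98 in the Oregon R list. The 50th percentile stood at a fold of 1.74 with fkh-Gal4 and 1.85 with sage-Gal4, the 90th at 2.29 and 2.45, and the 99th at 2.89 and 3.01. Most of each list is thus packed into a narrow range of folds, where a small step in fold is a large step in rank. In the fkh-Gal4 list the 40th and the 60th percentile were folds of 1.69 and 1.81. Peak lists do not give the read depth, and because the lists differ in length a percentile says where a peak stands within its list and nothing about the amount of CrebA bound.

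Over the 4255 shared regions the median percentile was 64.4 with fkh-Gal4 and 68.5 with sage-Gal4. The difference had a median of -1.86 points, quartiles of -18.7 and 12.5, and extremes of -95.1 and 83.0. It was above 0 at 1953 regions (45.9%) and below 0 at 2302 (54.1%). Across the regions, which all come from the same pair of libraries, the percentiles of the drivers had a Spearman rho of 0.54 and a Pearson r of 0.49 (n = 4255 regions). A difference of 20 points or more was used to call a region higher with one driver, and a difference of 5 points or less to call it alike. By this rule 724 regions ranked higher with fkh-Gal4 (17.0% of shared regions), 1014 ranked higher with sage-Gal4 (23.8%), 890 ranked alike (20.9%) and 1627 lay in between. Differences past 50 points were seen at 132 regions with fkh-Gal4 higher and at 264 with sage-Gal4 higher. The lean of the counts towards sage-Gal4 depends on the scale. When percentiles were taken among the shared regions alone, 930 regions ranked higher with fkh-Gal4 and 893 with sage-Gal4, and the median difference was 0.80.

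**Figure D1:**
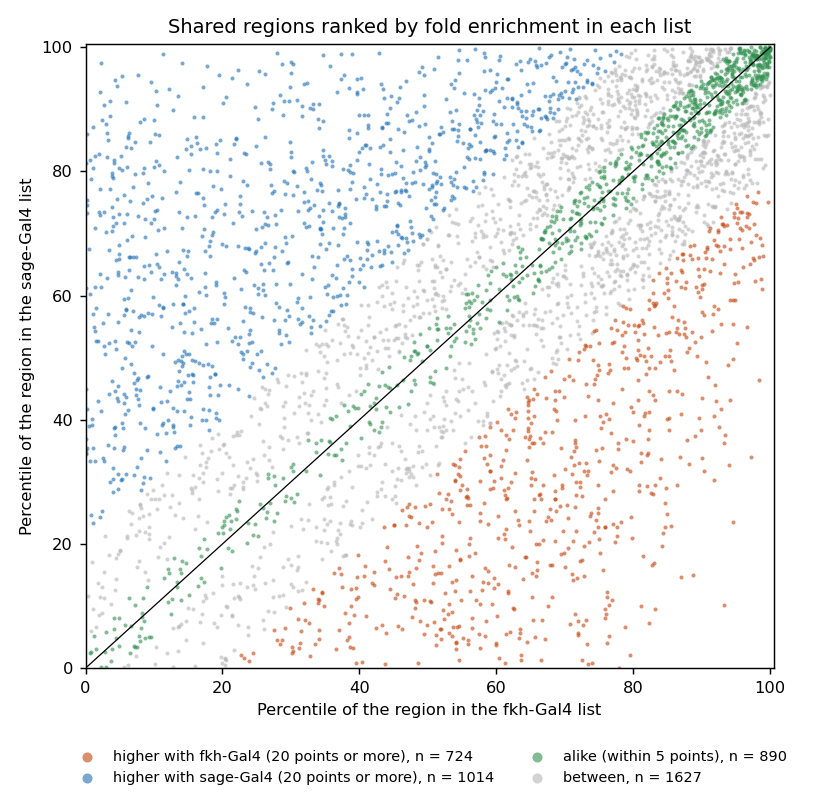
Each point is 1 of the 4255 shared regions, with its percentile by fold enrichment in the fkh-Gal4 list on one axis and in the sage-Gal4 list on the other, coloured by class. Points crowd towards the upper right corner, where both ranks are high, and spread widely below it, with 724 regions ranking higher with fkh-Gal4 and 1014 with sage-Gal4.

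The rank by the authors' -log10 q put the same sign on all 724 regions higher with fkh-Gal4 and on all 1014 regions higher with sage-Gal4. The difference was again 20 points or more at 596 (82.3%) of the fkh-Gal4 class and 829 (81.8%) of the sage-Gal4 class. Both measures come from the same reads at the same peaks. At the edge of the fkh-Gal4 class, the region at CG10348 lay just inside at 20.02 points, with folds of 1.96 with fkh-Gal4 and 1.89 with sage-Gal4, and that at CG42562 just outside at 19.97. At the edge of the sage-Gal4 class, the region at CG14811 lay just inside at -20.02 points, with folds of 1.93 with fkh-Gal4 and 2.51 with sage-Gal4, and that at CG13631 and CG42331 just outside at -19.94. Among regions called alike the last inside was at CG12912, at -4.996 points, and the first outside was at ss, at -5.01. Of 5638 overlapping pairs of peaks 159 overlapped by less than 50 bp, the smallest overlap was 1 bp, and the closest pair kept apart had a gap of 0 bp.

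How far a region could differ was limited by its mean percentile over both drivers. Of the 215 regions whose mean percentile was above 95, 183 (85.1%) ranked alike, and the top of both lists leaves no room there for a difference of 20 points. Between mean percentiles of 75 and 95, 29.7% of 1252 regions ranked alike, 89 ranked higher with fkh-Gal4 and 117 with sage-Gal4. The spread was widest between mean percentiles of 25 and 50, where the median size of the difference was 31.4 points and 7.53% of 1115 regions ranked alike. There 317 regions ranked higher with fkh-Gal4 and 426 with sage-Gal4. Below a mean of 25 the size was 13.6 points, where the bottom of both lists again leaves less room.

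**Figure D2:**
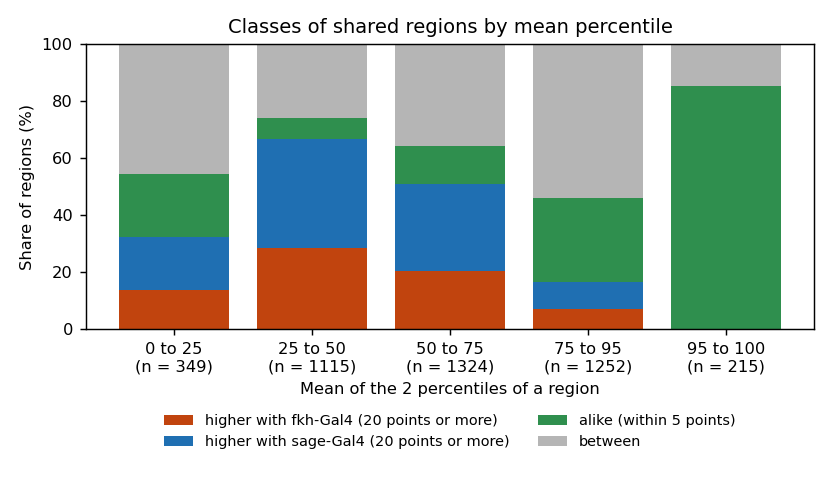
Stacked shares of the 4255 shared regions in each class, by mean percentile of both drivers in 5 bins. The share ranking alike was 85.1% in the highest bin and 7.53% between 25 and 50, and regions past 20 points lay between mean percentiles of 0 and 95.

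The regions of widest difference with fkh-Gal4 higher are given first. Genes are named here where a summit lay within 1000 bp of the start or end of the gene, and the 12 regions of widest difference at gene ends are given for each class. Coordinates are on dm6. The widest difference, 83.0 points, was at X:13159171-13159826, at CG12096 and Bap60, a subunit of the Brahma chromatin remodelling complex. Its fold was 2.39 with fkh-Gal4, at percentile 93.2, and 1.57 with sage-Gal4, at percentile 10.2. The next, at 3L:19263400-19264788, lay at Max, the bHLH partner of Myc, with Mettl5, an RNA methyltransferase, and CG42374. It had a fold of 2.01 with fkh-Gal4 and of 1.37 with sage-Gal4, near the bottom of that list, and a difference of 77.8 points.

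Most of the other named fkh-Gal4 regions, which were limited to gene ends, lay at more than 1 gene. That is not a trait of the class, where 32.6% of regions lay at 2 or more genes, against 35.7% of all shared regions. The region at Ranbp21, an exportin, and Elys, a nuclear pore protein, had folds of 2.12 with fkh-Gal4 and 1.57 with sage-Gal4, a difference of 73.7 points. At Asx, a Polycomb group protein, and Cpsf160, a factor of mRNA 3′ end processing, the folds were 1.95 and 1.42 and the difference was 72.7 points. At Kdm5, a histone H3 lysine demethylase, with the tetraspanin gene Tsp26A, they were 1.99 and 1.52, with a difference of 71.2 points. The zinc finger gene grau with CG30291 had the highest fold of these 12 regions with fkh-Gal4, 2.46 against 1.67 with sage-Gal4, and a difference of 71.1 points. At MED30, a Mediator subunit, with Rev1, a translesion DNA polymerase, and CG3402 the difference was 66.3 points. At mRpS17, a mitochondrial ribosomal protein, with Nop60B, an rRNA pseudouridine synthase, and CG3328 it was 66.2 points. The remaining members of the 12 lay at CG7369 (75.02 points), CG3065 with CG10904 (73.1), CNPYb with Naxd (72.1) and CG3760 (69.4). All 12 also held an Oregon R peak, at Oregon R percentiles between 22.1 and 96.5. Most shared regions did, with 80.2% of this class and 88.5% of all.

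Regions away from gene ends, chosen after their values were seen as those of widest difference with no gene end within 1000 bp of a summit, reached similar sizes with fkh-Gal4. One at 2R:10581489-10582229 lay inside psq, a BTB domain factor, with folds of 2.04 with fkh-Gal4 and 1.46 with sage-Gal4 and a difference of 77.4 points. Others lay inside CG30015 (73.7 points), inside loco, a regulator of G protein signalling (72.3 points), and inside Lpin, a phosphatidate phosphatase, and kermit (71.1 points). A pair lay between genes, with CG43354 (72.1 points) and mtSSB (71.1 points) as the nearest.

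Regions ranked higher with sage-Gal4 reached wider differences than those ranked higher with fkh-Gal4, on the scale of percentiles within each list. With percentiles among the shared regions alone, the difference was -85.7 points at CG10184 and 85.0 at CG12096 with Bap60. At 3R:23601345-23601957, at CG10184, the fold was 1.42 with fkh-Gal4, at percentile 2.17, and 2.55 with sage-Gal4, at percentile 92.7, a difference of -90.6 points. The same region lay at tRNA:Leu-CAA-2-3. At 2L:3354635-3355334, at E23, an ecdysone-responsive ABC transporter, the fold was 1.43 with fkh-Gal4 and 2.47 with sage-Gal4, a difference of -88.0 points. Peaks of both regions stood near the bottom of the fkh-Gal4 list and above the 90th percentile of the sage-Gal4 list.

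The other regions named for sage-Gal4 follow in order of size. At CG1806 the folds were 1.45 with fkh-Gal4 and 2.49 with sage-Gal4, and the difference was -87.7 points. At olf413 the difference was -86.0 points, and at wkd, a Rab GTPase activating protein, with CG5342 it was -85.8. At CG46339 it was -84.5 points. At 1 of 2 shared regions at Fim, the actin bundling protein fimbrin, it was -83.1 points, with folds of 1.44 and 2.35. Over both regions the highest fkh-Gal4 fold at Fim was 1.88, and the gene was at -19.2 points. MRP, an ABC transporter, had -81.6 points, and kibra, an upstream component of the Hippo pathway, had -81.3 points with CG7530, at folds of 1.33 with fkh-Gal4 and 2.24 with sage-Gal4. The fkh-Gal4 peak at kibra was the weakest of the whole fkh-Gal4 list. At the glycine transporter gene GlyT with CG46398 the difference was -81.2 points, at Akap200, an anchor of protein kinase A, -80.8, and at CG13907 -79.9. These 12 regions also held an Oregon R peak each, at Oregon R percentiles between 19.6 and 95.1. So did 94.4% of this class and 88.5% of all shared regions.

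Away from gene ends the 6 regions of widest difference with sage-Gal4 higher, again chosen after their values were seen, lay inside genes. Inside Pde8, a cyclic nucleotide phosphodiesterase, the region at 2R:23666692-23667464 had a fold of 1.43 with fkh-Gal4, at percentile 2.30, and 2.83 with sage-Gal4, at percentile 97.4. Its difference of -95.1 points was the widest of the 4255 regions, and its nearest gene end lay 9356 bp away. Inside apt, a transcription factor gene, the folds were 1.46 and 2.62 and the difference was -90.4 points. Inside Eip74EF, an ETS factor induced by ecdysone, they were 1.47 and 2.66, with -90.1 points at 3L:17590486-17591159. Inside Tet the difference was -89.1 points, inside Stat92E, the transcription factor of JAK-STAT signalling, -87.8, and inside shn, a zinc finger factor of Dpp signalling, -87.5. The region in shn had folds of 1.52 with fkh-Gal4 and 2.98 with sage-Gal4.

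The regions ranked alike and highest had folds near 3 with both drivers. The 11 named ones, chosen by their mean percentile among gene-end regions within 2 points, stood at percentiles of 99.2 or more in both lists. They include several genes of the secretory route. TRAM, a protein of the ER translocation site, had folds of 3.51 with fkh-Gal4 and 3.47 with sage-Gal4. At deltaCOP, of the COPI coat, with Gcna they were 3.33 and 3.40. At garz, the Arf exchange factor that recruits COPI, with CG8841 they were 3.16 and 3.05, and at lva, a golgin, with CG6428 they were 3.14 and 3.06. The sulfotransferase gene pip had 3.28 and 3.07, and PIG-L, which acts early in making GPI anchors, had, with psidin, 3.02 and 3.22. The region at l(1)G0320, a subunit of the translocon-associated TRAP complex, also lay at RpS28b and had 3.09 and 3.07. The rest were at CG14301, CG4645 with Brms1, Rif1 with Gpo1, and CG6688. All 11 held an Oregon R peak, at Oregon R percentiles between 76.0 and 99.9. An Oregon R peak lay in 90.7% of regions alike and 88.5% of all shared regions.

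Away from gene ends, the regions alike and highest, chosen after their values were seen, were a pair inside CG1677 near brk, a repressor of Dpp targets, and others inside jbug, nvy, CG31678 and NFAT. Their percentiles lay between 99.18 and 100 over both drivers. The region in nvy had folds of 3.48 with fkh-Gal4 and 3.13 with sage-Gal4 and no Oregon R peak.

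**Figure D3:**
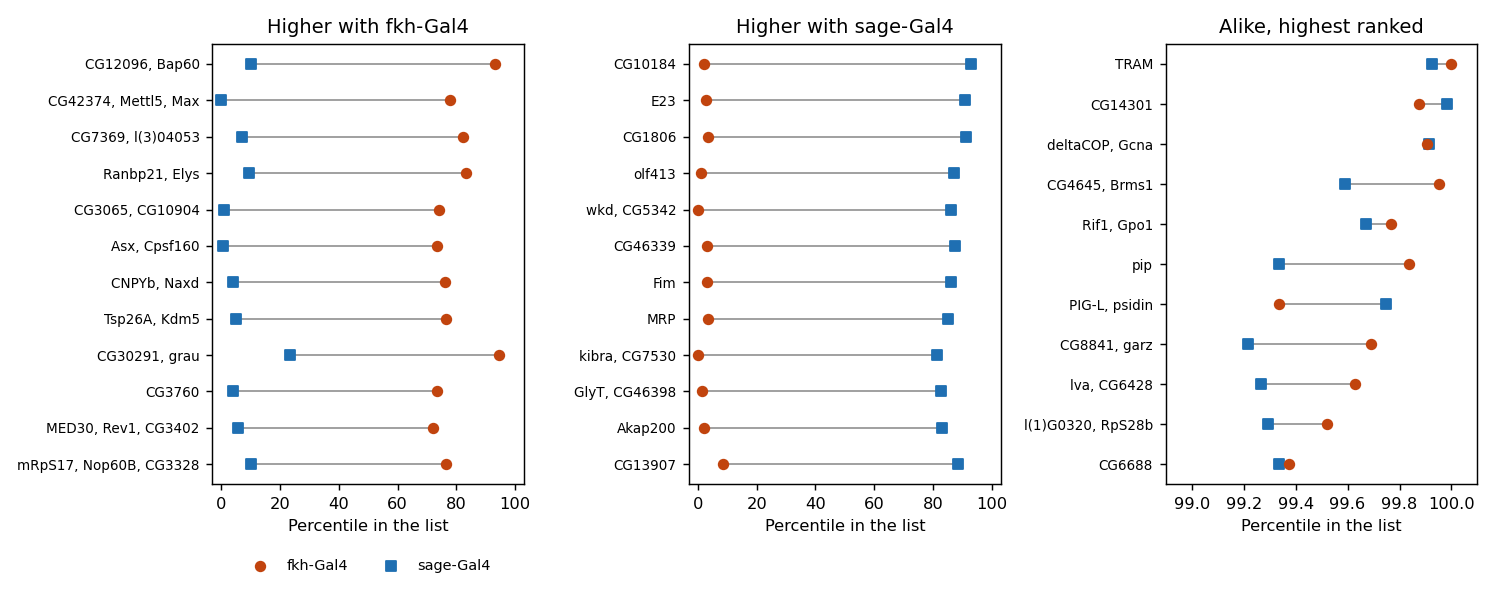
Percentiles in the fkh-Gal4 list and the sage-Gal4 list of the regions named for each class, 12 in each driver's class and 11 alike, 1 panel per class, joined by a line for each region. The axes of the panels differ, and in the panel of regions ranked alike all values are 99.2 or more.

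The secretory pathway, described by 21 lists with 222 genes, had 157 genes at 180 shared regions. Of the 157 genes 22 (14.01%) ranked higher with fkh-Gal4, 9 (5.73%) higher with sage-Gal4 and 66 (42.0%) alike. Over all 3592 protein-coding genes at shared regions, 14.2% ranked higher with fkh-Gal4, 25.1% higher with sage-Gal4 and 22.4% alike. The median difference was 2.11 points over the secretory genes and -2.33 over all protein-coding genes. Median percentiles of the secretory genes were 88.9 with fkh-Gal4 and 83.9 with sage-Gal4. A gene with several regions takes its highest percentile in each list, and genes that share a region share its value, so genes are not independent of one another.

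The secretory genes are strong ones, and strength limits the difference, so they were also set beside other genes of like mean percentile. Above a mean percentile of 95 there were 38 secretory genes (24.2% of them), of which 97.4% ranked alike, and 151 other protein-coding genes (4.4%), of which 85.4% ranked alike. Between 75 and 95 the share ranking alike was 31.3% of secretory genes and 32.6% of others. It was 10.7% and 12.1% between 50 and 75, and 20.8% and 10.4% at 50 or below. In the bins between 50 and 95 secretory genes thus had no higher share alike than others. Between 75 and 95 the median difference was 3.72 points over 67 secretory genes and -0.67 over 1117 others. Between 50 and 75 it was 6.11 points over 28 secretory genes and -6.95 over 1055 others. At 50 or below it was 14.8 points over 24 secretory genes, 18 of them above 0, and -8.00 over 1112 others, 450 of them above 0. In each of these 4 bins the secretory genes had the higher median, by little in the highest bin, where it was 0.18 points against 0.14.

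Genes for entry into the ER mostly ranked alike. The signal recognition particle (SRP) and its receptor bring ribosomes with nascent secretory proteins to the ER, and all 8 genes lay at shared regions. There were 4 alike (50%), 1 higher with fkh-Gal4 (12.5%) and 1 higher with sage-Gal4 (12.5%). All protein-coding genes had 22.4%, 14.2% and 25.1%. SrpRalpha, a receptor subunit, had folds of 3.07 with fkh-Gal4 and 2.97 with sage-Gal4. The exceptions stood far apart. Srp9 had 2.29 and 1.80, at percentiles 90.1 and 43.5, and Srp54k, the subunit that binds signal peptides, had 1.67 and 2.67, at percentiles 37.8 and 95.4. Of 9 genes of the Sec61 channel and its TRAP and TRAM partners 6 ranked alike and none passed 20 points, between Sec61beta at -14.2 points and SsRbeta, a TRAP subunit, at 17.1. Of 5 genes of signal peptide cleavage 4 ranked alike, and of 6 subunits of the oligosaccharyltransferase, which adds N-glycans to proteins, 4 did. None of these 11 genes passed 20 points.

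Genes that build and trim N-glycans varied more. The enzymes that assemble the glycan on its lipid carrier had 10 of 17 genes at shared regions, with 3 higher with fkh-Gal4 and 2 higher with sage-Gal4. These were 30% and 20% of the 10 genes, where all protein-coding genes had 14.2% and 25.1%. Dpm1, of dolichol phosphate mannose synthesis, had folds of 1.88 with fkh-Gal4 and 1.68 with sage-Gal4, a difference of 43.2 points. The glucosyltransferase genes wol and gny lay at 28.8 and 23.4 points. Dhdds, which makes the dolichol carrier, had 1.71 and 2.53 (-47.5 points), and Alg2, a mannosyltransferase, had 1.81 and 2.57 (-33.7 points). Of 6 genes of glycan trimming and the calnexin cycle 3 (50%) ranked higher with fkh-Gal4, against the same 14.2%. Calr, the lectin chaperone calreticulin, had 2.40 with fkh-Gal4 and 1.78 with sage-Gal4, at percentiles 93.3 and 40.1, the sage-Gal4 value being that of a neighbouring region described further on. Its membrane-bound relative Cnx99A had 1.86 and 1.76 (27.5 points), and Mgat1, a Golgi N-acetylglucosaminyltransferase, had 2.05 and 1.75 (43.5 points).

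The list of ER chaperones and cochaperones had 8 genes at shared regions, among them DnaJ-1, a cytosolic cochaperone (-2.9 points). Of these 8, P58IPK, an ER DnaJ protein, was the one past 20 points. It had folds of 2.15 with fkh-Gal4 and 1.71 with sage-Gal4 and a difference of 55.8 points. Gp93, the ER Hsp90, had 2.67 and 3.03 (-1.6 points) and Grp170 had 2.67 and 2.94 (-1.1 points). Sil1, a nucleotide exchange factor for the ER Hsp70, had 1 region at each end of the scale. One had 2.005 with fkh-Gal4 and 1.65 with sage-Gal4 (57.0 points), and the other had 1.39 and 1.95 (-59.7 points). Disulfide isomerases and the oxidase Ero1L ran between ERp60 at -10.7 points and CG9302 at 18.3, with none of 7 past 20 points. The isomerase gene Pdi had 2.72 and 2.92, both above percentile 97.

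Genes of vesicle coats between the ER and the Golgi were strong with both drivers and lay more often above 0 than below. All 9 genes of the COPII coat and ER exit sites found at shared regions lay between -3.8 and 12.8 points, and 7 were above 0. Sec16, the scaffold of exit sites, had folds of 2.98 with fkh-Gal4 and 2.502 with sage-Gal4, and Sec13, a cage subunit, had 2.32 and 2.19. The p24 cargo receptors and Surf4 lay between -3.6 and 11.3 points, highest for CHOp24 with 3.15 and 2.41. The list of the COPI coat and retrieval had all 12 genes at shared regions, and 1 passed 20 points. That was alphaCOP, a cage subunit, with 3.13 with fkh-Gal4 and 2.14 with sage-Gal4, at percentiles 99.6 and 74.99. The next was beta'COP, at 18.3 points with 2.99 and 2.24, in the same region as CG9302. Low in this list were epsilonCOP at -15.4 points and ArfGAP3 at -12.1.

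The COG complex and the golgins had medians above 0. All 7 genes of the COG complex, which tethers vesicles within the Golgi, that lay at shared regions were above 0, with a median of 13.8 points. That median was 5.81 with a reciprocal overlap of 50%, 5.60 where each list had a single peak, and 24.3 with percentiles among shared regions. Cog1 had folds of 2.23 with fkh-Gal4 and 1.86 with sage-Gal4 (37.0 points), and Cog7 had 2.85 and 2.04, at percentiles 98.8 and 68.1. The lowest, fws, encodes the fifth COG subunit and lay at 0.5 points. Golgins and stacking proteins had a median of 6.11 points over 10 genes, with Gorab at 21.5 points and the tether p115 at 18.4. Among SNAREs, which drive membrane fusion, 11 genes had a median of 2.11 points, and the widest on each side were Snap29 and Gos28. Snap29 had 1.84 with fkh-Gal4 and 1.44 with sage-Gal4 (62.3 points), and Gos28 had 1.46 and 1.86 (-46.8 points). The TRAPP list had 3 of 9 genes at shared regions. They were Trs20, Trs23 and Bet1, which is a SNARE gene also counted among the 11. The exocyst, a tether at the plasma membrane, had 2 of 8.

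Further modifying enzymes went different ways. The mucin-type O-glycosylation enzymes had 6 of 12 genes at shared regions, a median of -13.5 points and 1 gene above 0. Among them Pgant5, which starts O-glycans, had folds of 1.99 with fkh-Gal4 and 2.47 with sage-Gal4. Sulfation and nucleotide sugar transport had a median of 3.18 points over 12 genes and wide extremes. Papst2, a transporter of the sulfate donor, had 2.29 and 1.97 (28.4 points), nac, a GDP-fucose transporter, had 1.74 and 1.52 (43.9 points), and Efr, an ER GDP-fucose transporter, had 1.47 and 2.27 (-77.3 points). Both fucose transporter genes thus lay far from 0, on opposite sides. GPI anchor synthesis had 7 of 19 genes at shared regions, with PIG-B at 33.7 points and PIG-F at -21.8.

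Genes of ER stress and quality control were covered by a pair of lists. In the unfolded protein response, PEK, the PERK kinase sensor, was at 20.8 points, the one gene of 5 past 20, and the 4 transcription factor genes of that list were below 0. These were crc, the ATF4 factor, at -16.3, CrebA itself at -13.8, Xbp1 at -7.7 and CrebB at -1.5. Xbp1, the target of Ire1 splicing, had folds of 2.24 with fkh-Gal4 and 2.71 with sage-Gal4. In ER-associated degradation 3 of 8 genes (37.5%) ranked higher with fkh-Gal4 and none with sage-Gal4. All protein-coding genes had 14.2% and 25.1%. The 3 genes were the ubiquitin ligase gene sordd1 (37.1 points), sip3, the Hrd1 ligase (28.4), and Der-1, of the retrotranslocation complex (25.5). Der-1 had 2.22 with fkh-Gal4 and 1.97 with sage-Gal4. Of the 8 genes 5 lay above 0, and the lowest were Edem1, a lectin of glycoprotein degradation, at -17.2 points and Ubqn at -4.6.

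**Figure D4:**
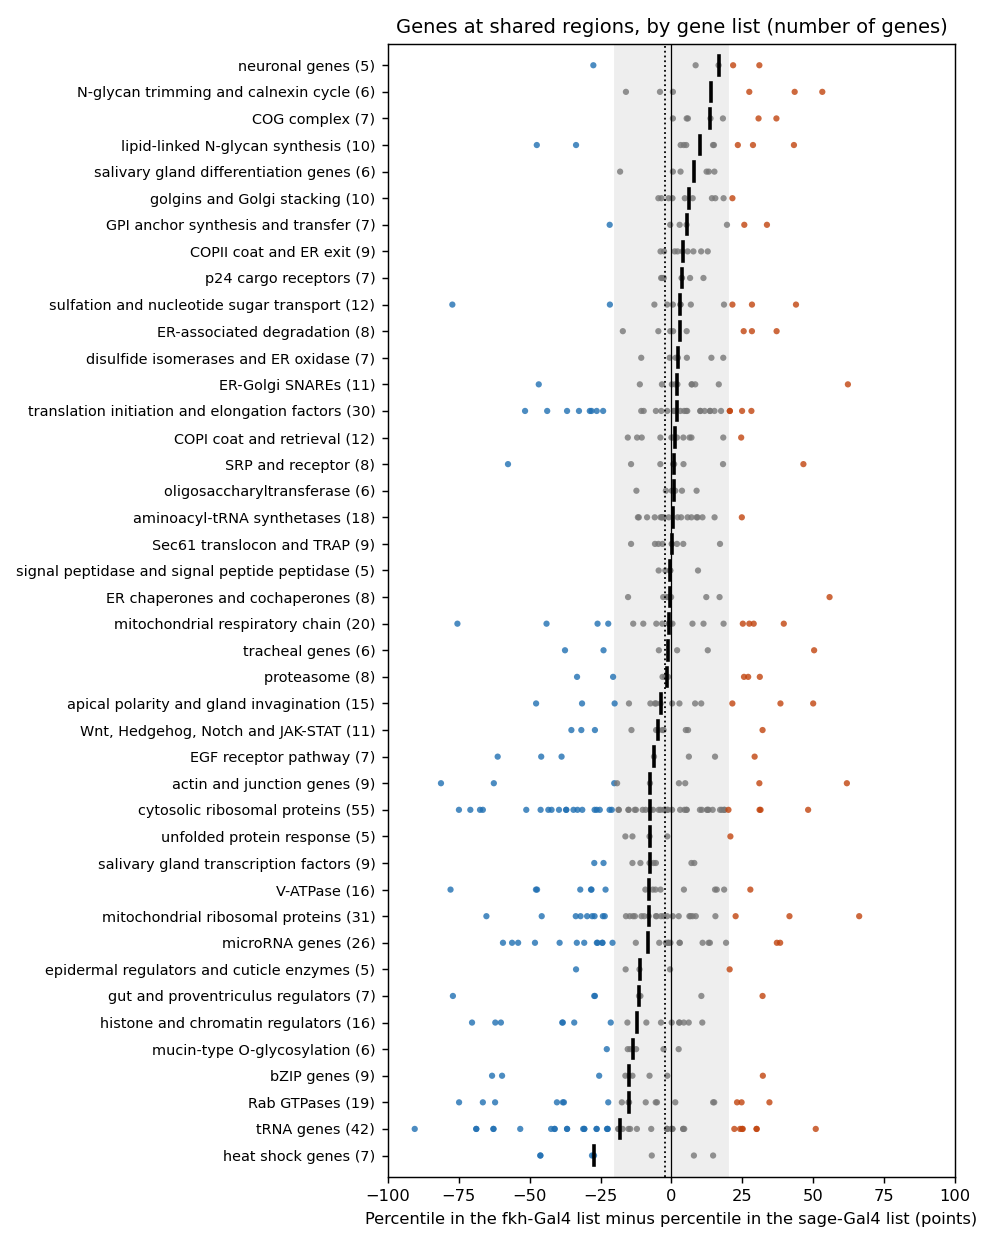
Median difference in percentile, fkh-Gal4 minus sage-Gal4, for each gene list with 5 or more genes at shared regions (black dashes), with the single genes as points, the band within 20 points shaded and the median of all protein-coding genes dotted. The median was 2.11 points over the 157 secretory genes and -2.33 over all 3592 protein-coding genes.

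The loci of fkh, sage and CrebA, whose sequences the transgenes carry in part, were looked at one by one. The fkh locus has 1 shared region, at 3R:28584275-28586594, and it ranked higher with sage-Gal4, with folds of 1.91 with fkh-Gal4 and 2.81 with sage-Gal4 and a difference of -27.2 points. The sage locus has a region at 3R:9263185-9264553 with 1.95 and 2.02 (7.06 points) and no Oregon R peak, and a second at 3R:9266299-9266799 with 1.505 and 1.596 (-4.09 points). Whether the reporter or driver transgenes add reads at these loci was not tested. Within 5000 bp of CrebA there were 6 shared regions, between 42.2 points, at 3L:15547876-15548160 with 1.89 and 1.68, and -59.0 points, at 3L:15532478-15533099 with 1.46 and 1.99. The strongest with fkh-Gal4, at 3L:15530301-15531620, had 2.73 with fkh-Gal4 and 2.47 with sage-Gal4, and the strongest with sage-Gal4, at 3L:15548345-15550614, had 2.34 and 2.70.

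Other genes of the gland lay on both sides of 0. The list of salivary gland transcription factors had 9 of 15 genes at shared regions, none higher with fkh-Gal4 and 2 higher with sage-Gal4, which were fkh and rib. Those 2 are 22.2% of the 9, where all protein-coding genes had 14.2% higher with fkh-Gal4 and 25.1% with sage-Gal4. The BTB factor rib had folds of 1.87 with fkh-Gal4 and 2.45 with sage-Gal4 (-24.0 points). Of the 9 genes 7 lay below 0, and sage and the zinc finger factor sens lay above, sens at 8.1 points. The differentiation genes of the gland had 6 of 16 at shared regions and none past 20 points, with pip at 0.5 points and PH4alphaSG2, a prolyl hydroxylase, at 12.4. Both nur and CG14756, also of that list, were above 0, at 13.2 and 15.2 points, and Btk, a tyrosine kinase, was below, at -18.1 points.

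Genes of other tissues were listed as well. Of 21 gut and proventriculus regulators 7 (33.3%) lay at shared regions, against 25.8% of all protein-coding genes. Of these 7, 1 (14.3%) ranked higher with fkh-Gal4 and 3 (42.9%) with sage-Gal4. All protein-coding genes at shared regions had 14.2% and 25.1%. The widest were sob, a zinc finger factor, with folds of 1.54 with fkh-Gal4 and 2.45 with sage-Gal4 (-77.1 points), and the signal hh with 1.75 and 1.64 (32.2 points). Tracheal genes had pio, of the apical matrix, at 50.3 points and sinu, a claudin, at -37.6. The epidermal list had the chitin synthase gene kkv at 20.5 points and rtv, also needed for chitin organisation, at -33.7. Of 5 neuronal genes Nrg, the adhesion molecule neuroglian, was at 31.02 points, unc-13 at 21.8 and elav, an RNA binding protein of neurons, at -27.6. The muscle list had Mlc2, how and Mef2 at shared regions, at -2.3 to 12.5 points, and the hemocyte and fat body list had LanB1, crq and LanB2, at -38.4 to -7.0. The Hox list had the cofactor exd at -5.5 points and no Hox gene.

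Signalling genes reached wide differences. All 4 Dpp pathway genes at shared regions lay below 0, and 2 ranked higher with sage-Gal4. These were the BMP binding protein gene cv-2, with folds of 1.78 with fkh-Gal4 and 2.87 with sage-Gal4 (-42.2 points), and babo, a type I receptor of Activin signalling (-49.3 points). Dad and Med ranked alike, at -0.77 and -0.26 points. The median of the Dpp list was -21.5 points, or -0.52 with a window of 2000 bp at gene ends. In the EGF receptor pathway 1 of 7 genes (14.3%) ranked higher with fkh-Gal4 and 3 (42.9%) with sage-Gal4, where all protein-coding genes had 14.2% and 25.1%. The phosphatase gene csw had 1.67 and 2.79 (-61.3 points), S, which carries the ligand precursor, was at -45.9 and the repressor aop at -38.8. The ligand gene Krn was at 29.4 points. Of the JAK-STAT genes hop, the kinase, was at -35.3 points and Stat92E at -31.8. The receptor gene dome was at -4.6 points and the inhibitor gene Socs36E at 5.9.

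Among 9 bZIP genes 8 were below 0. Pdp1, a circadian and growth regulator, had folds of 1.60 with fkh-Gal4 and 2.33 with sage-Gal4 (-63.3 points), REPTOR, a TORC1 effector, was at -59.8 and cnc, the Nrf2 factor, at -25.5. The exception was vri, a circadian repressor, at 32.3 points in 1 region at its gene end, with 1.73 and 1.61. Over the span of vri itself 7 shared regions ran between -33.9 and 10.8 points, none higher with fkh-Gal4 and 1 higher with sage-Gal4. The strongest of the list, CrebB, had 2.80 and 3.55, above percentile 98 in both lists.

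Cell shape genes were spread on both sides. Apical polarity and invagination genes had 15 of 19 at shared regions, with 3 higher with each driver. That is 20% each, where all protein-coding genes had 14.2% higher with fkh-Gal4 and 25.1% with sage-Gal4. The cadherin gene shg had folds of 1.72 with fkh-Gal4 and 2.62 with sage-Gal4 (-47.8 points), zip, the myosin heavy chain, was at -31.5 points and the secreted signal fog at -20.04. The apical spectrin gene kst was at 38.5 points and Crag, which sorts basement membrane cargo, at 50.01. Of the actin and junction genes kibra and ed, an adhesion protein, were at -81.3 and -62.7 points at gene ends, and jbug, a filamin, was at 61.9 points at its gene end, with 2.15 and 1.67. The stronger region inside jbug, named above, ranked alike. Over the span of ed 5 shared regions had a median of 1.22 points, 2 of them higher with fkh-Gal4 and 1 with sage-Gal4.

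Chromatin regulators and heat shock genes had none higher with fkh-Gal4, where all protein-coding genes had 14.2%. Of 16 chromatin genes 7 (43.8%) ranked higher with sage-Gal4 and 5 (31.2%) alike, against 25.1% and 22.4% of all protein-coding genes, with a median of -12.2 points, or 5.36 when weaker peaks, with a -log10 q under 10, were left out. Some genes of the Polycomb group and its counterparts were among the 7 higher with sage-Gal4. E(z), the histone H3 methyltransferase, had folds of 1.56 with fkh-Gal4 and 2.16 with sage-Gal4 (-60.2 points). Psc was at -34.3, Pc at -38.3 and trx at -62.1. The Polycomb group genes ph-d and ph-p, at -15.5 and -8.8 points, were not called higher with either driver. Their percentiles were 83.1 and 89.6 with fkh-Gal4, and 98.6 and 98.4 with sage-Gal4. Over its span trx had 5 shared regions, between -62.1 and 52.7 points with a median of 9.43, and 1 was called on each side. The insulator gene mod(mdg4) had 1.45 and 2.13 (-70.4 points). The remodeller gene brm had 3.11 and 2.77 and ranked alike. Bap60, Asx and Kdm5, named above on the fkh-Gal4 side, are also chromatin genes and were not in this list. Of 7 heat shock genes 4 ranked higher with sage-Gal4, with a median of -27.3 points. Hsp70Bb and Hsp70Bbb share a region with 1.57 and 1.99 (-46.2 points), where reads of near-identical copies may be mixed. Hsp83 was at -28.0, Hsp27 at -27.3 and the regulator Hsf at 14.7 points.

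Cytosolic ribosomal protein genes had 55 of 93 at shared regions, with 4 (7.27%) higher with fkh-Gal4 and 19 (34.5%) with sage-Gal4 and a median of -7.60 points. That is a lower share with fkh-Gal4 and a higher share with sage-Gal4 than the 14.2% and 25.1% over all protein-coding genes. RpL19 had folds of 1.58 with fkh-Gal4 and 2.48 with sage-Gal4 (-71.0 points) and sta, the ribosomal protein SA, had 1.64 and 2.84 (-67.5 points). RpL13 had 2.67 and 2.02 (31.4 points). Mitochondrial ribosomal proteins had 3 higher with fkh-Gal4 and 9 with sage-Gal4 of 31, between mRpS17 at 66.2 and mRpL24 at -65.3. Their median was -8.01 points, or 0.37 when each region was given to its nearest gene only.

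Proton pump and Rab genes are given beside the background of 14.2% higher with fkh-Gal4 and 25.1% with sage-Gal4. Of 16 V-ATPase genes, for the pump that acidifies organelles, 1 (6.25%) ranked higher with fkh-Gal4, Vha68-1 at 27.8 points, and 7 (43.8%) with sage-Gal4, with VhaAC45 at folds of 1.39 with fkh-Gal4 and 2.20 with sage-Gal4 (-77.9 points). Of 19 Rab GTPase genes, which direct vesicle traffic, 3 (15.8%) ranked higher with fkh-Gal4 and 7 (36.8%) with sage-Gal4. Rab2, of ER to Golgi traffic, had 1.64 and 2.60 (-62.2 points), Rab19 was at -74.9, and Rab1 was at -5.1. The early endosome gene Rab5 was at 24.7 points and RabX1 at 34.6. The Rab median was -14.9 points, or -2.09 with a reciprocal overlap of 50% and -30.1 where each list had a single peak.

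Other housekeeping lists were nearer to 0. Translation factors had 30 of 33 genes at shared regions and a median of 2.08 points, with 4 (13.3%) higher with fkh-Gal4 and 8 (26.7%) with sage-Gal4, close to the 14.2% and 25.1% of all protein-coding genes. Subunits of the eIF3 initiation complex stood at both ends, with eIF3d1 at folds of 2.72 with fkh-Gal4 and 2.06 with sage-Gal4 (28.2 points) and eIF3k at 1.54 and 2.01 (-51.6 points). Aminoacyl-tRNA synthetase genes had 18 of 33 at shared regions, 1 higher with fkh-Gal4, none with sage-Gal4 and 7 alike, between -11.8 points for TyrRS and 24.8 for GlyRS. Genes of the respiratory chain had 4 on each side of 20, with a median of -0.75 points, and the proteasome had 3 higher with fkh-Gal4 and 2 with sage-Gal4 of 8.

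Clustered RNA genes share regions, so the number of regions is given with them. The 42 tRNA genes at shared regions stood at 29 regions, of which 6 ranked higher with fkh-Gal4, 12 higher with sage-Gal4 and 5 alike, where all shared regions had 17.0%, 23.8% and 20.9%. At tRNA:Ala-TGC-1-1 and tRNA:Ala-TGC-2-1 the folds were 1.54 with fkh-Gal4 and 2.26 with sage-Gal4, a difference of -68.9 points. At tRNA:Thr-TGT-2-2 they were 1.87 and 1.61 (50.9 points). Over single genes of any kind at shared regions 14.7% ranked higher with fkh-Gal4 and 25.2% with sage-Gal4. Of 26 microRNA genes at 29 regions 2 ranked higher with fkh-Gal4 and 12 with sage-Gal4, and mir-4968 had 1.70 and 3.02 (-56.2 points). The gene mir-375 had 3.27 and 2.77, at percentiles 99.8 and 96.9. Of 56 snoRNA genes at 43 regions 13 ranked higher with fkh-Gal4 and 20 with sage-Gal4, and of 240 long noncoding RNA genes at 263 regions 38 and 57.

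Different regions of 1 gene could fall in different classes, as 17.0% of all shared regions ranked higher with fkh-Gal4 and 23.8% with sage-Gal4. Of 535 genes with 2 or more shared regions at their ends, 58 (10.8%) had a region past 20 points on each side. Some of the 58 share their regions, as MED30 and CG3402 do, and the share among regions of different genes was not computed. Besides Sil1, the 58 genes included Calr. It had a region of 2.40 with fkh-Gal4 and 1.76 with sage-Gal4 (55.7 points) and a neighbour of 1.40 and 1.78 (-39.2 points). At MED30 the regions ran between -43.1 and 66.3 points. Long genes held many shared regions. Those named here were picked after their values were seen and are not all of those with the most, and others are given at the end. Over all shared regions 17.0% ranked higher with fkh-Gal4, 23.8% with sage-Gal4 and 20.9% alike. Over the span of ftz-f1, a nuclear receptor of the ecdysone response, there were 19 regions, none higher with fkh-Gal4, 7 higher with sage-Gal4 and 2 alike, between -79.1 and 14.5 points. Eip74EF had 14, with 2 higher with fkh-Gal4 and 4 with sage-Gal4, and Eip75B, another ecdysone-induced receptor, had 13, with 1 and 5. Other genes of the ecdysone response did not share this lean. The receptor gene EcR had 9 regions, with 2 and 2 and a median of 3.31 points. Hr4 had 13, with 1 and 2, and tai had 11, with 3 and 2. RapGAP1, a GTPase activating protein for Rap1, had 11 regions, 5 higher with fkh-Gal4 and none with sage-Gal4, with a median of 19.2 points. The zinc finger gene shn had 11 regions, 3 and 2, and its median was 3.93 points although one of its regions was at -87.5.

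Position and shape of the regions also varied by class. The end of a protein-coding gene lay within 1000 bp of a summit at 347 regions higher with fkh-Gal4 (47.9%), 615 regions higher with sage-Gal4 (60.7%) and 500 alike (56.2%), against 2369 of all shared regions (55.7%). The median distance to the nearest gene end was 1200 bp in the fkh-Gal4 class, 394.5 bp in the sage-Gal4 class and 585.5 bp in regions alike. About the same share of each class lay inside a gene, 75.5%, 76.9% and 77.1%. Regions alike were wider, at a median of 1032.5 bp, against 654 bp in the fkh-Gal4 class and 704.5 bp in the sage-Gal4 class, and their folds were higher. Summits of both drivers lay a median of 75 bp apart in the fkh-Gal4 class, 68 bp in the sage-Gal4 class and 55 bp in regions alike. The share higher with fkh-Gal4 was between 16.1% on X and 18.2% on 2L among the 5 large arms, and the share higher with sage-Gal4 between 20.6% on X and 26.6% on 3L.

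The Oregon R list, which the classes did not use, held a peak in 3767 shared regions (88.5%). It covered 581 regions higher with fkh-Gal4 (80.2%), 957 regions higher with sage-Gal4 (94.4%) and 807 alike (90.7%). The share was lower in the fkh-Gal4 class than in the sage-Gal4 class at each strength where both classes had regions. Below a mean percentile of 25 an Oregon R peak lay in 36 of 48 regions of the fkh-Gal4 class, in 58 of 65 of the sage-Gal4 class (89.2%) and in 93.5% of regions alike, which had the highest share there. Between mean percentiles of 25 and 50 the shares were 83.0% of the fkh-Gal4 class, 93.9% of the sage-Gal4 class and 77.4% of regions alike, the lowest. Regions alike lay between the classes at 84.5% between 50 and 75, where the fkh-Gal4 class had 76.3% and the sage-Gal4 class 95.1%. They did so too at 95.2% between 75 and 95, where the fkh-Gal4 class had 85.4% and the sage-Gal4 class 96.6%. Along the scale, 98.8% of the 160 regions with a difference below -60 points held an Oregon R peak and 78.7% of the 465 between 20 and 40 points did, while 89.6% of the 48 above 60 points did. In the same bins of 160, 465 and 48 regions a gene end lay within 1000 bp at 60.6%, 50.5% and 60.4%. Whether the share near gene ends plays a part in the Oregon R share was not tested. Where an Oregon R peak was present, its median percentile was 69.5 in the fkh-Gal4 class and 70.6 in the sage-Gal4 class. Over these 3767 regions the Oregon R percentile had a Spearman rho of 0.25 with that of fkh-Gal4, 0.28 with that of sage-Gal4 and 0.00 with the difference.

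**Figure D5:**
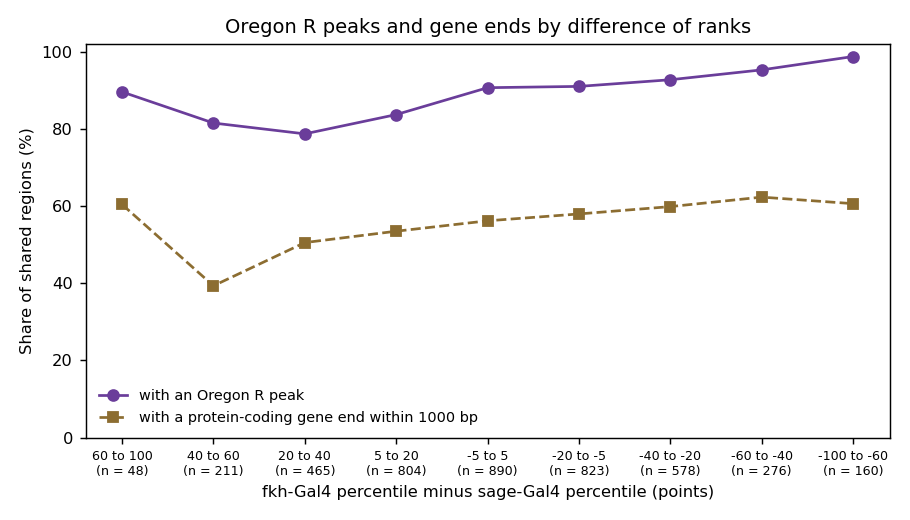
Share of shared regions that also held an Oregon R peak, and share with a gene end within 1000 bp, by difference in percentile in 9 bins, with regions higher with fkh-Gal4 at the left. The Oregon R share was 98.8% at the sage-Gal4 end and lowest, 78.7%, between 20 and 40 points on the fkh-Gal4 side.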

How the data were processed

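The 3 immunoprecipitated libraries each have 1 deposited peak list and an input library, which enters only through the authors' calls. Per the submitters' processing notes, the aligner was BWA, the genome build dm6 and the peak caller MACS2 (2.1.0.20140616). How the inputs were used, and whether the 2 collections were pooled, is not given in the sources used here. Each deposited list has an integer score (not used), a fold enrichment over the caller's local background (a ratio set by the authors), the -log10 of a p-value (not used) and of a q-value, and the summit offset in bp, deposited by the authors as another unit. Read depth and counting error cannot be had from peak lists.

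Peaks of both driver lists overlapping by at least 1 bp were merged, percentiles were taken within the whole of each list, ties sharing their mean rank, and the sage-Gal4 percentile was subtracted from that of fkh-Gal4. Genes came from a RefSeq table of release 6 (identical to dm6), which places 13946 protein-coding genes on the chromosome arms. It gives no strand or exons, so a gene was placed at a region when its start or end lay within 1000 bp of the strongest fkh-Gal4 or sage-Gal4 summit. The members, the thresholds and the 49 gene lists were chosen with earlier results of these data known. In 14 lists some symbols did not match the table and were left out. Families such as ribosomal proteins and Rab GTPases were matched by symbol patterns, which can take in related genes. Regions were named as the 12 of widest difference on each side and the 12 of highest mean percentile within 2 points, all with a protein-coding gene end. Of the last 12, 1 is not reported here. Genes were named as the extremes and the strongest of each list, and as the fkh, sage and CrebA loci. Other genes of the lists were named for their roles after their values were seen. With 1 library per group no test was run. The planned search for motifs was not run, since no sequence was used here. The code was tested on simulated data and ran in Python (version 3.11.15), with scipy at version 1.17.1, pandas at 2.3.3, numpy at 2.4.6 and matplotlib at 3.10.9.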

Additional observations from a re-analysis of the deposited data

How the results depend on the processing

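No paired analysis was possible because each group has 1 library. Of 625 alternative values of 93 results 495 stayed within their tolerance and 130 moved. The 93 results were headline values, list medians and named regions, and single genes of the lists were not run under the alternatives. Differences and list medians among the 93 that were past 20 points as reported did not change sign. The median over all shared regions did change sign, at 0.80 with percentiles among the shared regions alone, and so did the medians of 18 of 47 gene lists under some alternative. Of the headline values, most of those that moved did so when peaks were limited to a -log10 q of at least 10, ranked among themselves. Then 769 shared regions were left, with 146 higher with fkh-Gal4, 263 higher with sage-Gal4 and 115 alike, a rho of 0.38, and Oregon R shares of 95.9% in the fkh-Gal4 class and 98.1% in the sage-Gal4 class. The number of gene lists with a median below that of all protein-coding genes was 18, and 2 with this limit, where fewer lists had 5 genes left. With a reciprocal overlap of 50%, 479 regions ranked higher with fkh-Gal4 and 621 with sage-Gal4. With thresholds of 10 and 30 points, 1200 and 436 regions ranked higher with fkh-Gal4, and within 10 points 1553 ranked alike. The median over secretory genes lay between 0.85 and 4.21 points, and the Oregon R share was lower in the fkh-Gal4 class than in the sage-Gal4 class under every alternative run. At the 24 regions named for a difference, all 98 alternative values kept their sign and stayed past 20 points, and none of these regions was left at a -log10 q of 10. These regions were picked as the widest, and the settings on overlap and single peaks return the same value where a region is kept. The count of 98 is therefore no independent check. The median of N-glycan trimming ran between -4.0 and 35.2 points, that of neuronal genes between -14.0 and 26.0, and that of chromatin regulators between -21.4 and 5.4, while that of heat shock genes stayed between -28.0 and -17.1. That of V-ATPase genes was 24.1 at a -log10 q of at least 10, against -7.90 as reported. The causes were not tested. The planned promoter motif search was not run. The unknown read depth limits how far small steps in fold, and so in rank, can be told from counting error.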

Other observations

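Of the 4255 shared regions 3 lay on sequences outside the chromosome arms. A pair on unplaced Y sequence had differences of 43.6 and 14.3 points, and 1 on a sequence with no known chromosome had -7.15 points. The small chromosome 4 held 15 shared regions, with 4 (26.7%) higher with fkh-Gal4, 5 (33.3%) higher with sage-Gal4 and 3 (20%) alike. All shared regions had 17.0%, 23.8% and 20.9%. The median difference on chromosome 4 was -3.24 points. Merged regions with an fkh-Gal4 peak alone numbered 1590 and those with a sage-Gal4 peak alone 2897, and they have no difference of ranks.

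Other long genes with many shared regions, picked after their values were seen, held both directions. Over all shared regions 17.0% ranked higher with fkh-Gal4 and 23.8% with sage-Gal4. The span of bun, a TSC-22 family factor, held 18 shared regions, of which 3 ranked higher with fkh-Gal4 and 6 with sage-Gal4, between -65.6 and 38.7 points. That of mam, a coactivator of Notch, held 14, with 3 and 4, between -85.8 and 47.5 points. That of tara held 14, with 2 and 3, and that of Hr4, a nuclear receptor of the ecdysone response, held 13, with 1 and 2. The span of tai, a coactivator of the ecdysone receptor, held 11, with 3 higher with fkh-Gal4 and 2 with sage-Gal4, and a median of 9.51 points.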
